A study of Mus musculus with 10 samples.

Results

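The aryl hydrocarbon receptor pathway was followed through 9 genes: the receptor gene Ahr, its partner Arnt, the repressor Ahrr and the target genes Cyp1a1, Cyp1a2, Cyp1b1, Tiparp, Nqo1 and Aldh3a1. They are 9 of the 18193 genes named on the array. All probe sets annotated to 1 of these genes alone were taken, 18 of the 34945 probe sets with 1 gene symbol on the array. The receptor is a ligand-activated transcription factor that waits in the cytoplasm with chaperones, enters the nucleus when a small molecule binds it, pairs with ARNT and binds xenobiotic response elements. Its targets include the CYP1 cytochromes, which oxidise many foreign compounds, and the feedback repressors Ahrr and Tiparp. In embryonic cells the pathway is also known for roles without added ligand, in the heart and vessels among other organs.

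Total RNA of the CGR8 line, embryonic stem (ES) cells of mouse strain SV129, was measured on 10 arrays. Untreated ES cells (n = 3, passages 25, 26 and 27) were set against ES cells given 1 mM EBIO for 3 days (n = 3, the same passages), and differentiated cells without EBIO (n = 2) against differentiated cells with it (n = 2). Differentiation took 5 days in embryoid bodies, and EBIO was then present or absent for 10 more days, at a dose the labels do not give. EBIO opens potassium channels that respond to calcium, and all groups shared 1 cell line with no genetic change named. Values are log2 RMA values, and a gene below its array's median is called dim: differences that start there are understated, because RMA compresses low values.

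The ES and differentiated arrays had been normalized as separate sets, so levels are compared within a stage and only described between stages. Array medians lay at 4.52 to 4.62 in ES cells and 5.59 to 5.68 in differentiated cells. The defining ES marker Pou5f1 stood at 11.88 ± 0.02 in untreated ES cells and at 7.68 ± 0.34 (SD, n = 3 each) in the EBIO-treated cells that the labels also call ES cells. The lowest correlation between arrays of a group was 0.982, between untreated ES arrays 1 and 3. As a sign of RNA quality, the 3' minus 5' difference of Actb was 0.42 ± 0.09 in untreated and 0.14 ± 0.06 in EBIO-treated ES cells (SD, n = 3 each), and 0.43 ± 0.04 and 0.46 ± 0.02 in differentiated cells (n = 2 each). For Gapdh the same difference was -0.005 ± 0.073 in untreated and 0.023 ± 0.019 in EBIO-treated ES cells (SD, n = 3 each). In untreated and EBIO-treated differentiated cells it was 0.031 ± 0.012 and 0.025 ± 0.008 (SD, n = 2 each). The part of RNA quality in the results was not tested.

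The promoter windows of 3 targets that rose together with EBIO in differentiated cells, Cyp1a1, Cyp1b1 and Tiparp, and that of Nqo1, which rose with them and fell in ES cells, are shown because the receptor and ARNT act on the genes through short DNA elements. Each window is the 250 bases before the RefSeq transcript start, 5′ to 3′ on the gene's strand, in build GRCm38.p6. Capitals mark the element's core GCGTG, or CACGC where it lies on the opposite strand. The windows lie at chr9:57697363-57697612 (+ strand), chr17:79715062-79715311 (- strand), chr3:65528197-65528446 (+ strand) and chr8:107403206-107403455 (- strand). That of Cyp1a1 falls inside the annotated span of the gene, which begins at base 57687928, and the other 3 lie upstream of their genes.
Cyp1a1: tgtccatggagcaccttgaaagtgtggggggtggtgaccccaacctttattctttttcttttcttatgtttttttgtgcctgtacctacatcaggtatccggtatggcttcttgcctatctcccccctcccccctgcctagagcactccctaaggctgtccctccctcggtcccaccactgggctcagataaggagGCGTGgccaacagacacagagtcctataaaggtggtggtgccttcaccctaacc
Cyp1b1: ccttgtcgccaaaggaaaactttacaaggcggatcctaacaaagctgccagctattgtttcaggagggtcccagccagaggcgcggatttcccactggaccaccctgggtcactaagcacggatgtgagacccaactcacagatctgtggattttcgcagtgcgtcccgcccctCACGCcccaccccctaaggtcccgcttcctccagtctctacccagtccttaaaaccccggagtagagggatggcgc
Tiparp: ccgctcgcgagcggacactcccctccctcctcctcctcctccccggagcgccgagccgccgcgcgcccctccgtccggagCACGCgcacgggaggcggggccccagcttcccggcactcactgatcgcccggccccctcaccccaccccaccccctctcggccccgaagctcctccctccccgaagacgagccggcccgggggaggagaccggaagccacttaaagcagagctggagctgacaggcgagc
Nqo1: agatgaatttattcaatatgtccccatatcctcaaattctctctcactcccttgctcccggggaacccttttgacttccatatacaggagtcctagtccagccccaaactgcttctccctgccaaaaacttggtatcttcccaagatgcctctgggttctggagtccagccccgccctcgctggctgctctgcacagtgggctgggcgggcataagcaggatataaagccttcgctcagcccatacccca
The Cyp1a1 window held 1 core, at positions -54 to -50 from the start. The Cyp1b1 window held 1 on the opposite strand, at -76 to -72, and the Tiparp window 1 on the opposite strand, at -170 to -166. Nqo1 and Cyp1a2 had none. Of the 7 members with a window in the RefSeq table, 5 held the core, against 28.2% of all 32851 windows of this length. The longer form TNGCGTG, which contains the core, occurred in Ahrr alone among them and in 4.1% of all windows. Ahrr had 3 cores and Arnt 1. A match describes the letters only, and known enhancers of Cyp1a1 lie further upstream than this window reaches.

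**Figure D1:**
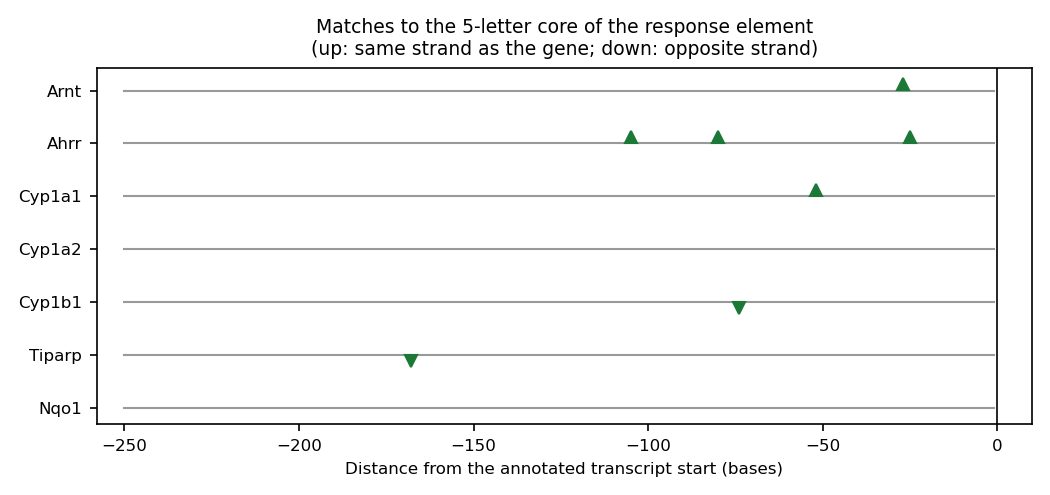
Matches to the core GCGTG in the 250 bases before the transcript start of 7 members. The horizontal axis is the distance from the start in bases, triangles pointing up lie on the gene's strand and those pointing down on the opposite strand. Ahrr holds 3 matches, Arnt, Cyp1a1, Cyp1b1 and Tiparp 1 each, and Cyp1a2 and Nqo1 none.

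The comparison of EBIO with no treatment in differentiated cells asked how the pathway stood after 10 days of the compound. Cyp1a1, Cyp1b1, Tiparp and Nqo1 rose, the receptor gene Ahr fell, and Arnt was not called. Of the 9 members 6 were bright enough to be tested; 4 were called higher and 1 lower at an adjusted p under 0.05 (limma, Benjamini-Hochberg over 12338 genes). EBIO moved much of the transcriptome here: 65.9% of all genes tested were called, 33.3% higher and 32.6% lower. With so few members, and with Cyp1a1 bright enough only on the EBIO arrays, nothing is read from the members' count, and the sizes of the single changes carry the description.

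Cyp1a1, the receptor's most inducible cytochrome, measured 4.10 and 4.37 on the untreated arrays and 9.13 and 8.77 on the EBIO arrays. It was dim without EBIO and stood at the 82.7th percentile of its array with it, with a wide gap between the groups. The difference of 4.72 ± 0.15 (SE, n = 2 each, adjusted p = 5.9e-06, limma) corresponds to 26.3-fold on the RMA scale and is understated, since it starts below the array median. Cyp1a1 entered the test only through the 2 EBIO arrays, where it is high; with dim genes kept in the fit its adjusted p was 1.7e-05 (limma, n = 2 each). Of 12338 genes, 3 had a larger rise, but the order among genes that began dim is not resolved.

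Cyp1b1, the CYP1 enzyme of mesenchymal and vascular cells, was abundant without EBIO, at 10.08 and 10.29, and reached 11.60 and 11.71 with it. The groups did not overlap, and the rise of 1.47 ± 0.10 (SE, n = 2 each, adjusted p = 7.7e-05, limma) was 2.77-fold. Another probe set of the gene gave 8.73 and 8.77 without EBIO and 10.14 and 10.12 with it, a difference of 1.38. The remaining one was dim in every group and stood at 4.71 in both.

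Tiparp, which encodes an ADP-ribosyltransferase that represses the receptor, rose from 10.52 and 10.67 to 11.61 and 11.65. All 4 arrays were bright and the groups were separate. The rise was 1.03 ± 0.08 (SE, n = 2 each, adjusted p = 0.00014, limma), or 2.04-fold, and its other probe sets gave 0.87 and 0.80. Nqo1, a quinone reductase that both this receptor and NRF2 are known to induce, measured 6.96 and 6.92 without EBIO and 7.78 and 7.62 with it. Its rise of 0.76 ± 0.08 (SE, n = 2 each, adjusted p = 0.0005, limma) was the smallest of those called, and in the fit that shares its spread with the ES arrays it was not called (adjusted p = 0.057, limma).

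The receptor gene moved the other way. Ahr measured 11.13 and 11.16 on the untreated arrays and 10.21 and 10.06 on the EBIO arrays, without overlap. It fell by 1.01 on the log2 scale (SE 0.08, n = 2 each, adjusted p = 0.00016, limma), a 2.01-fold difference, and stayed at the 91.5th percentile of its arrays. Its second probe set was dim, at 5.17 on both untreated arrays and 4.92 and 4.85 on the EBIO arrays; a mean of both probe sets gave -0.65.

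Arnt, which dimerises with AHR and also with the hypoxia factors, had 5 probe sets. The brightest measured 8.82 and 8.81 without EBIO and 8.61 and 8.88 with it, so the groups overlapped. The difference was -0.07 (adjusted p = 0.60, limma; 95% interval -0.32 to 0.19), and the other 4 probe sets gave -0.16, -0.05, 0.07 and 0.12. A change of Arnt within that interval was not detectable here.

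The other 3 members were dim in all groups and were not tested. Ahrr, the repressor that competes with AHR for ARNT, measured 3.87 and 3.81 without EBIO and 4.26 and 4.25 with it, a small separation far below the array median. Its difference of 0.42 had an adjusted p of 0.0068 when dim genes were kept in the fit (limma, n = 2 each). Cyp1a2, the liver enzyme of the family, measured 4.10 and 4.02 without EBIO and 4.13 and 4.48 with it. Aldh3a1, an aldehyde dehydrogenase of cornea and stomach, lay between 2.91 and 3.10 on these 4 arrays. Neither passed the test when dim genes were kept (adjusted p = 0.18 and 0.26, limma).

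**Figure D2:**
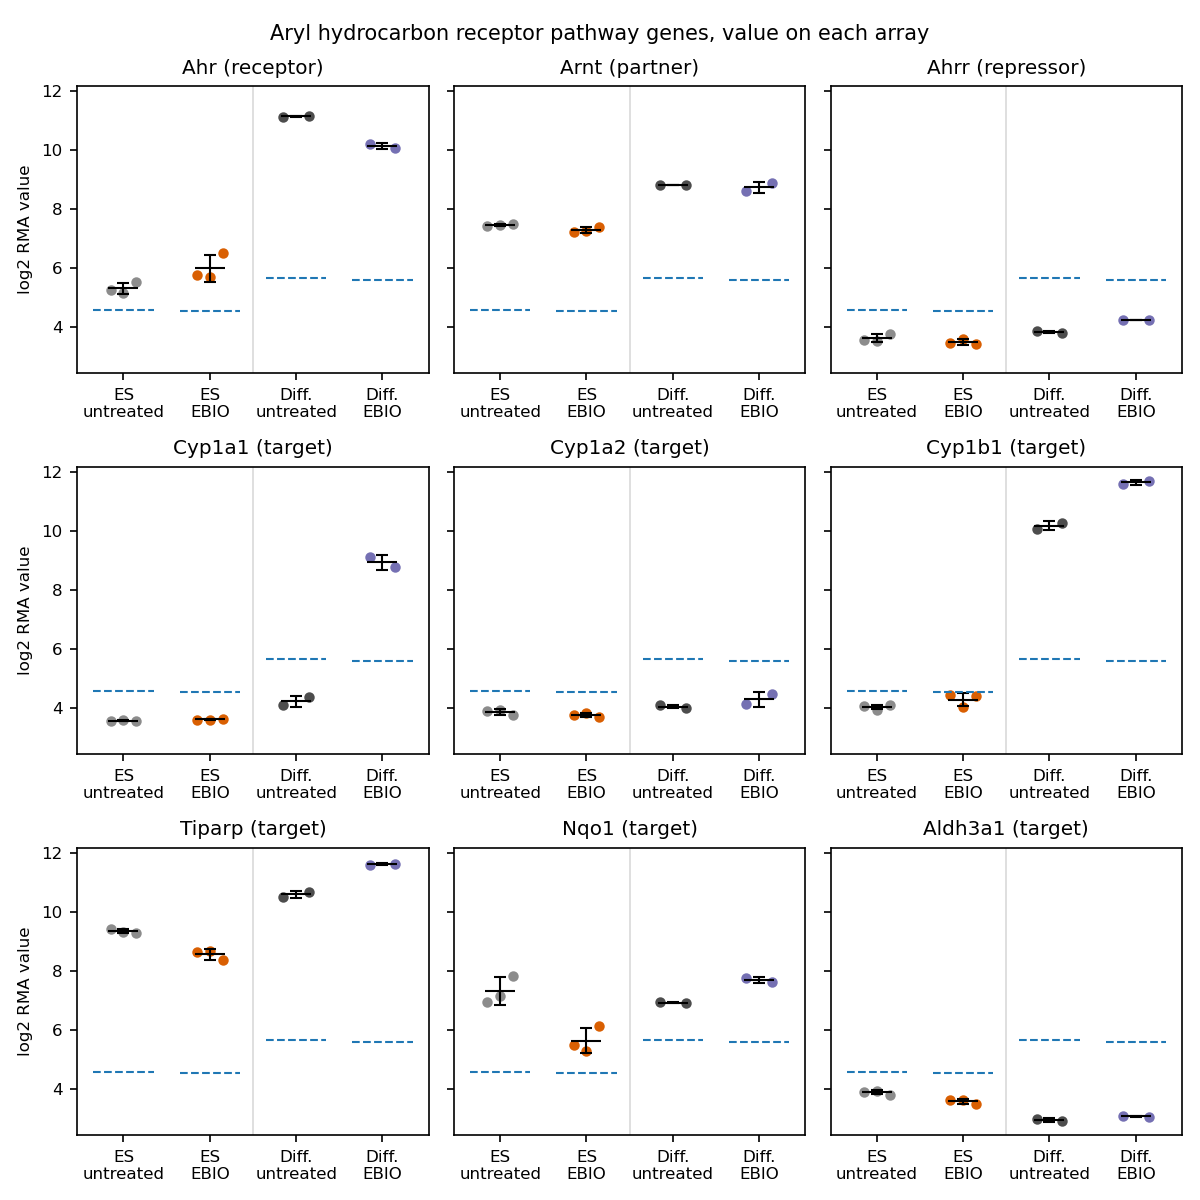
Log2 RMA value of each member on each array (points), by group, with mean and SD (black) and the mean array median of the group (dashed blue line). The vertical grey line separates the stages, which were normalized apart. Cyp1a1 crosses the median only in EBIO-treated differentiated cells, at 8.77 and 9.13, and Ahrr, Cyp1a2 and Aldh3a1 stay under it in all groups.

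The cell makeup of these cultures moved with the same comparison, and in bulk RNA fewer cells of a type and less RNA per cell cannot be told apart. All 8 cardiomyocyte markers rose, their summed level (log2 of the summed linear values) going from 12.61 and 12.66 to between 16.10 and 16.14. All 8 fibroblast markers fell, from 15.78 to 15.83 without EBIO down to 11.86 to 11.95 with it, and all 6 macrophage markers fell from a sum of 13.73 to 14.05 down to 7.22 to 7.27. Liver and endoderm markers (6 of 6, from 12.12 to 12.60 down to 8.14 to 8.26), epithelial markers (6 of 6, from 13.47 to 13.51 down to 12.22 to 12.39) and the 5 tested endothelial markers (from 10.26 to 10.34 down to 8.09 to 8.21) fell too, while Tie1 was dim throughout. The ES marker sum was 8.79 to 8.84 without and 8.62 to 8.98 with EBIO. Nanog, Tdgf1 and Zfp42 were dim on all 4 arrays. The macrophage markers, Lum, Thy1, Cdh5, Tek, Emcn, Pecam1, Afp and Alb were dim on the EBIO arrays. They entered the test only through the untreated arrays, where they are higher. Of all genes tested 33.3% were called higher and 32.6% lower, and nothing is read from the marker counts. Ahr fell in the same comparison as the fibroblast, macrophage, liver, epithelial and endothelial markers. Cyp1a1, Cyp1b1, Tiparp and Nqo1 rose in the same comparison as the cardiomyocyte markers. The part of these markers in the members' changes was not tested.

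In ES cells the question was what 3 days of 1 mM EBIO did to the same genes. Nqo1 and Tiparp fell, Ahr was called higher, a call that some settings kept and others lost, and the cytochromes of the family were dim with and without EBIO. Of the 9 members 4 were tested; 1 was called higher and 2 lower (limma, Benjamini-Hochberg over 12096 genes). Among all genes tested 44.8% were called, 23.5% higher and 21.2% lower.

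Nqo1 measured 6.95, 7.16 and 7.85 on the untreated arrays and 5.51, 5.30 and 6.13 on the EBIO arrays. Passage 27 was the highest in both groups, and the groups did not overlap. Nqo1 fell by 1.67 on the log2 scale (SE 0.27, n = 3 each, adjusted p = 0.0012, limma), a 3.19-fold difference. Within passages 25, 26 and 27 the differences were -1.44, -1.86 and -1.72.

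Tiparp went from 9.43, 9.34 and 9.30 to 8.66, 8.68 and 8.37, again without overlap. It fell by 0.79 (SE 0.13, n = 3 each, adjusted p = 0.0014, limma), or 1.72-fold, with differences of -0.76, -0.66 and -0.94 within the 3 passages. Its other probe sets gave -0.91 and -0.83.

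Ahr measured 5.26, 5.16 and 5.52 without EBIO and 5.76, 5.71 and 6.52 with it. All EBIO arrays lay above all untreated ones, by the most in passage 27. The difference was 0.68 ± 0.22 (SE, n = 3 each, adjusted p = 0.034, limma). Within passages 25, 26 and 27 the differences were 0.50, 0.54 and 1.00, and with the passage as a block the adjusted p was 0.0029 (limma). It was not called when dim genes were kept in the fit (adjusted p = 0.055), with the mean of its probe sets (0.36, adjusted p = 0.074), or without untreated array 1 (adjusted p = 0.082), untreated array 2 (adjusted p = 0.12) or EBIO array 3 (0.42, adjusted p = 0.076). The dim second probe set differed by 0.05.

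Arnt measured 7.42, 7.47 and 7.48 without EBIO and 7.22, 7.25 and 7.39 with it. The groups were separate by a small margin, and the difference of -0.17 was not called (adjusted p = 0.27, limma; 95% interval -0.44 to 0.09). The other 4 probe sets ranged from -0.11 to 0.32.

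The cytochromes showed no level above the array median. Cyp1a1 measured 3.57, 3.6 and 3.56 without EBIO and 3.61, 3.61 and 3.65 with it. Cyp1b1 measured 4.08, 3.95 and 4.11 without EBIO and 4.44, 4.03 and 4.40 with it, so its groups overlapped. Cyp1a2 lay between 3.70 and 3.94 and Ahrr between 3.42 and 3.77 on the 6 arrays. With dim genes kept in the fit none of these 4 was called (adjusted p = 0.79, 0.23, 0.55 and 0.43, limma). Aldh3a1 measured 3.90, 3.96 and 3.82 without EBIO and 3.64, 3.64 and 3.51 with it, below the median throughout. In the fit that kept dim genes it was called lower, by a narrow margin (-0.30, adjusted p = 0.05 after rounding, limma).

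Beside these changes all 6 ES markers fell, their summed level going from between 14.69 and 14.80 to between 10.87 and 11.11. Of the 6 epithelial markers 4 rose and 1 fell, with a sum of 11.43 to 11.84 without and 13.55 to 13.97 with EBIO. Of the endothelial markers 2 of 4 tested fell, Pecam1 (-2.92) and Tek (-1.24), while Kdr (0.06) and Tie1 (-0.25) were not called. Cdh5 and Emcn were dim. Tek was dim with EBIO and entered the test only through the untreated arrays. The list's sum went from between 8.25 and 8.38 to between 6.78 and 6.92. Pecam1 was the brightest of the list in untreated ES cells, at 7.68. Of the cardiomyocyte markers 1 of 2 tested fell (sums of 7.64 to 7.74 without and 6.96 to 7.29 with EBIO), and no macrophage or liver marker was called (limma, 3 and 5 tested). Fibroblast markers stayed dim (7 of 8 under the array median on all 6 arrays), and their sum was 6.97 to 7.05 without and 6.99 to 7.0 with EBIO. Of all genes tested in ES cells 23.5% were called higher and 21.2% lower. The part of these markers in the fall of Nqo1 and Tiparp was not tested.

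**Figure D3:**
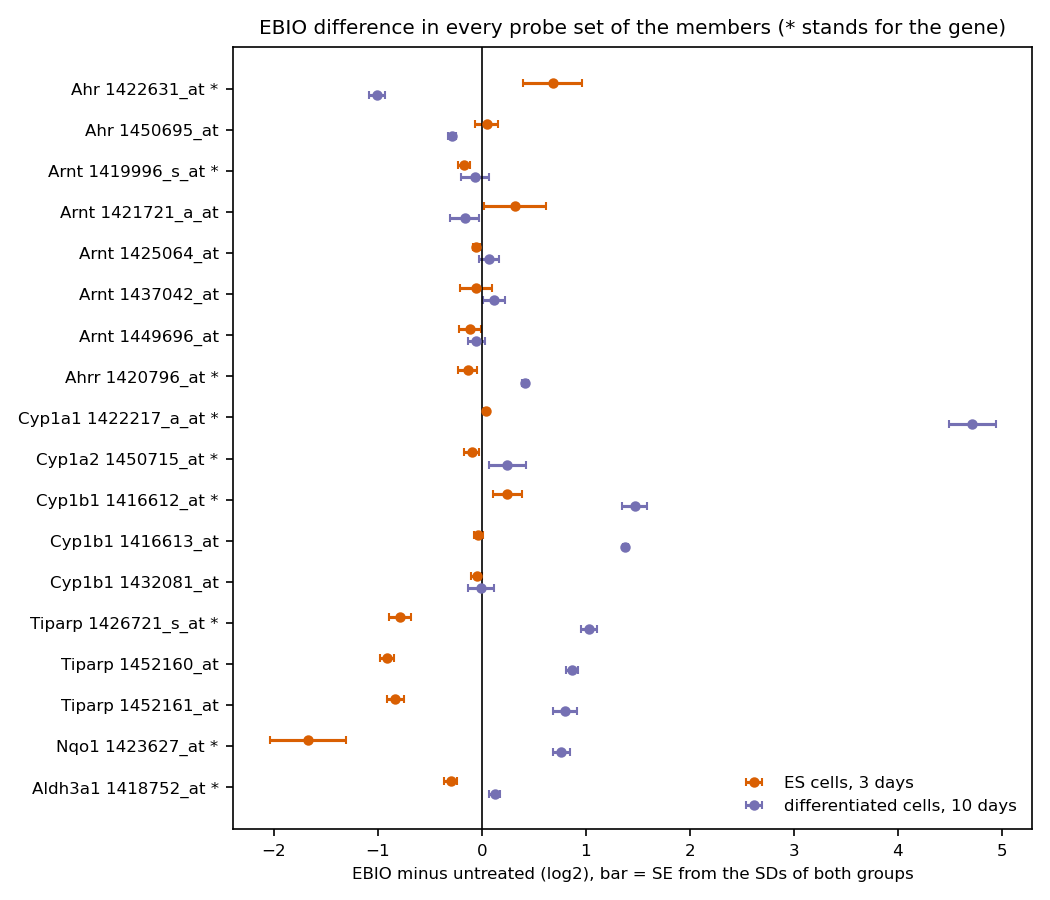
Difference between EBIO-treated and untreated arrays (log2) in each of the 18 probe sets of the members, in ES cells (orange, n = 3 each) and differentiated cells (purple, n = 2 each). Bars are the standard error from the SDs of both groups, and an asterisk marks the probe set that stands for its gene. The 3 Tiparp probe sets lie at -0.79 to -0.91 in ES cells and 0.80 to 1.03 in differentiated cells.

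The difference between the EBIO effects at the 2 stages was tested directly, as an interaction over all 10 arrays. The effect was larger in differentiated than in ES cells for Cyp1a1 by 4.68 ± 0.18 (SE, adjusted p = 1.6e-08, limma), for Nqo1 by 2.44 ± 0.38 (adjusted p = 0.00037), for Tiparp by 1.82 ± 0.17 (adjusted p = 9.8e-06) and for Cyp1b1 by 1.22 ± 0.20 (adjusted p = 0.00052). For Ahr it was lower by -1.69 ± 0.31 (adjusted p = 0.001), and Arnt was not called (0.11, adjusted p = 0.63; 95% interval -0.25 to 0.47). Cyp1a1 entered this test only through the EBIO-treated differentiated arrays and Cyp1b1 only through the differentiated arrays, and both were dim on all 6 ES arrays. With dim genes kept in the fit their adjusted p was 1.5e-08 and 0.00053 (limma). Of 6 tested members 5 were called, against 45.5% of the 13712 genes tested (20.5% with the higher and 25.0% with the lower effect in differentiated cells), and since the filter let in members that are high in 1 stage, nothing is read from that count. Only with dim genes kept in the fit were Ahrr (0.55, adjusted p = 0.015, limma) and Aldh3a1 (0.42, adjusted p = 0.036), dim on all arrays, tested and called too. Nqo1 and Tiparp were called in opposite directions at the 2 stages. Dose was stated for the ES cells only and exposure was longer in differentiated cells, so stage, time and possibly dose cannot be told apart.

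**Figure D4:**
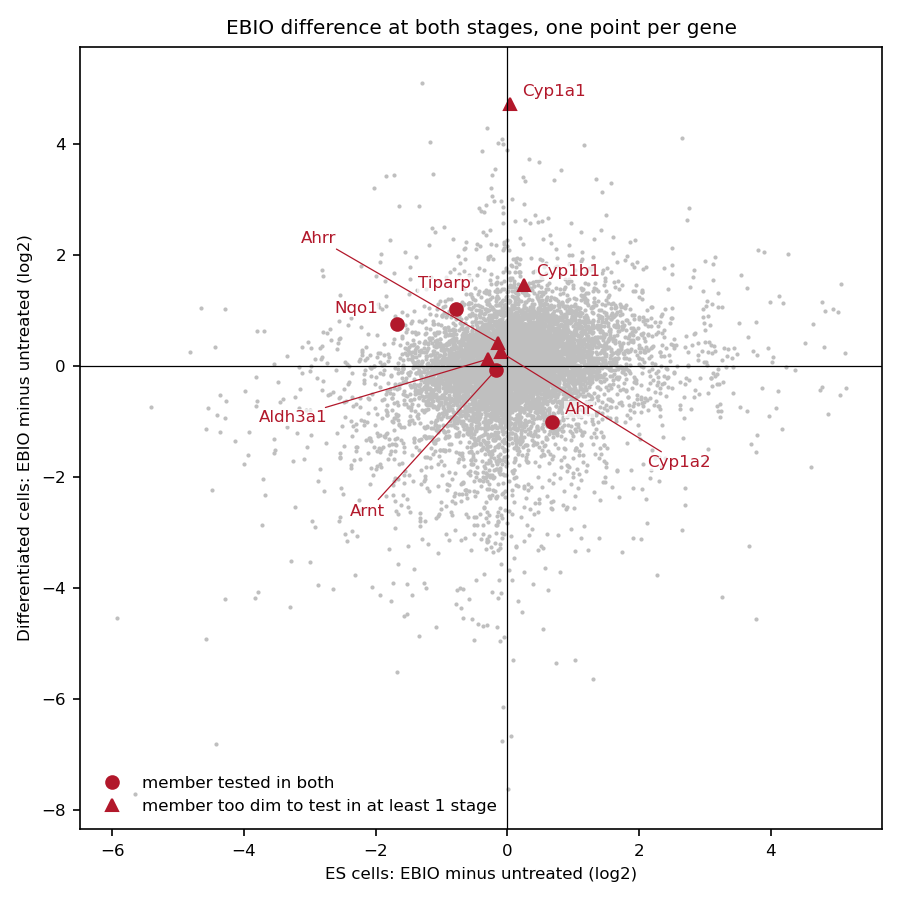
EBIO difference in ES cells (horizontal) against that in differentiated cells (vertical), both log2, for the 10925 genes tested at both stages (grey) and the 9 members (red; triangles were too dim to test in at least 1 stage). Cyp1a1 stands at 4.72 on the vertical axis and near 0 on the horizontal, and Nqo1 and Tiparp lie left of 0 and above it.

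Between untreated cells of the 2 stages, Ahr and Cyp1b1 stood far apart. Ahr lay 0.74 above its array's median in ES cells and 5.47 above it in differentiated cells. Cyp1b1 lay 0.53 below the median in ES cells (-0.53) and 4.51 above it in differentiated cells. After quantile normalization of all 10 arrays together these stage differences were 4.50 for Ahr and 5.14 for Cyp1b1. Relative to the array median, Nqo1 stood lower in untreated differentiated cells (1.27) than in untreated ES cells (2.74). So did Cyp1a2 (-1.61 against -0.70) and Aldh3a1 (-2.71 against -0.68), both dim in all groups. For Arnt, Ahrr, Cyp1a1 and Tiparp the sign of the stage difference depended on the scaling. In the order of levels, Ahr was highest in untreated and then EBIO-treated differentiated cells, and Cyp1b1 in EBIO-treated and then untreated differentiated cells.

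Other genes of the pathway were listed by role, 48 in all, of which 38 had a probe set of their own. Among coactivators and corepressors, which the receptor recruits to its targets, 7 of 8 tested rose in differentiated cells and none fell, where 33.3% of all genes tested were called higher and 32.6% lower. The largest rises were those of Ncoa1 (1.17), Med1 (0.93) and Ncoa2 (0.92), and the list's median was 0.58 against 0.02 over all genes tested. In ES cells 2 of these 8 rose, Nrip1 by 1.62 and Smarca4 by 0.48, and Ncoa1 fell by 1.03 (median 0.11 against -0.04 over all genes, of which 23.5% were called higher and 21.2% lower).

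Genes of the bHLH-PAS family, to which AHR and ARNT belong, were called in both directions in differentiated cells, 3 higher and 4 lower of 7 tested (median -0.28 against 0.02 over all genes, with 33.3% called higher and 32.6% lower). Epas1, a hypoxia factor that also pairs with ARNT, rose by 1.14, and the circadian genes Clock and Arntl rose by 0.81 and 0.77. Hif3a (-0.70), Arnt2 (-0.54) and Hif1a (-0.46) fell. In ES cells Epas1 rose by 1.21, Hif3a fell by 0.43, and the other 6 of 8 tested were not called (median 0.07 against -0.04, with 44.8% of all genes called).

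Of the receptor's chaperone and turnover genes, Src, a kinase found with the cytoplasmic complex, fell by 0.96 in differentiated cells, the only call among 4 (median -0.04), where 65.9% of all genes were called. In ES cells Cul4b, part of a ubiquitin ligase, rose by 0.97 and Src by 0.74, out of 4 tested (median 0.38), where 23.5% of all genes were called higher.

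Of the further genes listed as responsive to the receptor, 1 of 6 tested rose in differentiated cells and 4 fell (median -0.81 against 0.02), where 33.3% of all genes were called higher and 32.6% lower. Ugt1a6a, Ugt1a6b, Ugt1a2 and Gsta1 had no probe set of their own. Scin, Ereg, Serpinb2 and Ido1 were too dim to test at both stages, so the calls cover only the rest of the list. Cyp2s1, another inducible cytochrome and an epithelial one, measured 9.55 and 9.71 without EBIO and 6.99 and 6.84 with it. Cyp2s1 thus fell by 2.72, next to Fgf21 (-1.0) and the efflux pump gene Abcg2 (-0.81), while the amino acid transporter gene Slc7a5 rose by 0.41. Fgf21 was dim on the EBIO arrays of this stage and entered the test only through the untreated arrays, where it is higher. Nothing is read from the list's count of falls. In ES cells Lpar6 rose by 3.20, and Abcg2 (-0.93) and Cyp2s1 (-0.60) fell, out of 6 tested (median -0.50). Of all genes there, 23.5% were called higher and 21.2% lower. Lpar6 went the other way in differentiated cells, where it was called lower (-0.80). Of the 4 listed electron donors that cytochromes P450 can draw on, 3 were tested each time, and Por had no probe set of its own. Cyb5a (-0.97) and Cyb5b (-0.62) fell in differentiated cells, and Cyb5r3 rose by 1.02 in ES cells. The medians were -0.62 and -0.06, with 65.9% and 44.8% of all genes called. The level of Por is thus not known here.

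**Figure D5:**
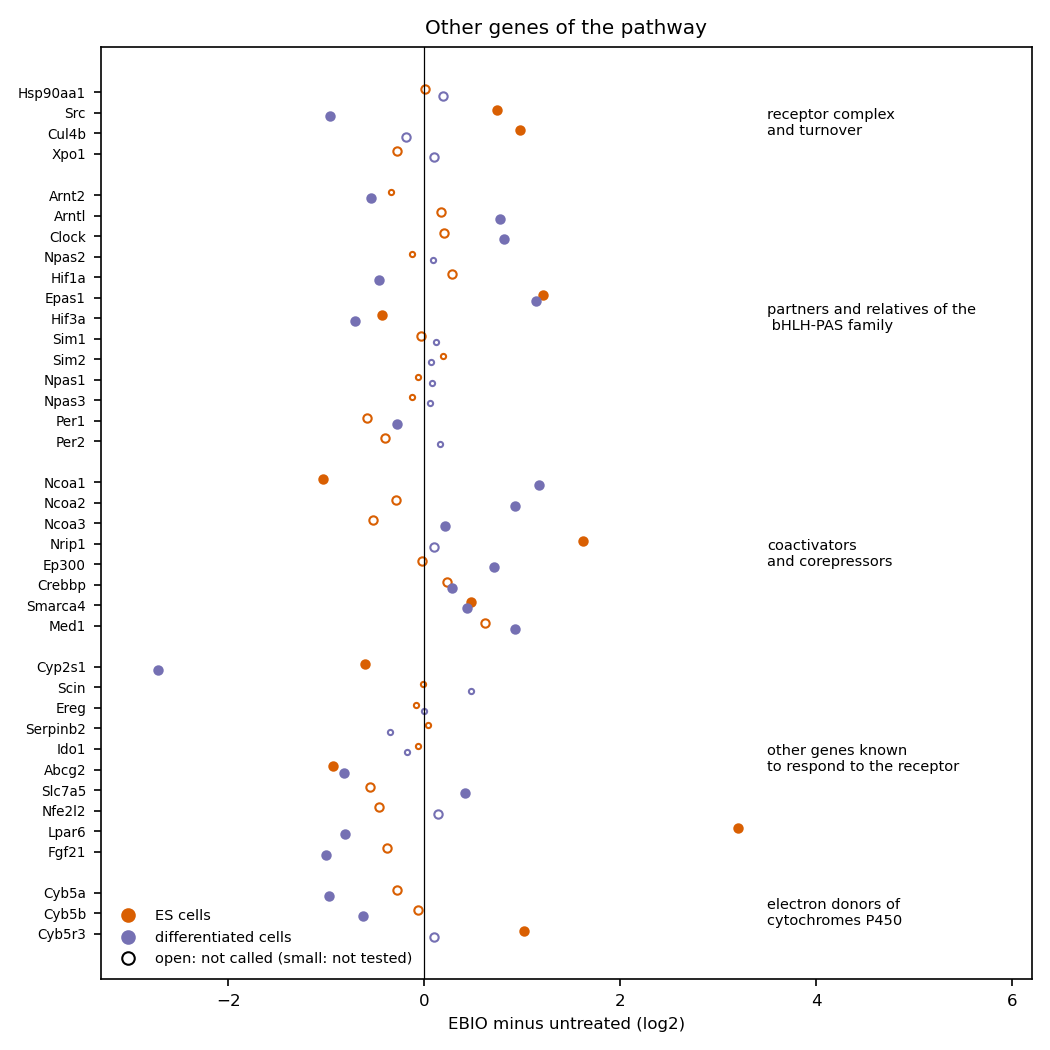
EBIO difference (log2) of 38 other genes of the pathway by list, in ES cells (orange) and differentiated cells (purple). Filled points were called at an adjusted p under 0.05 (limma), open points were not, and small open points were too dim to test. Cyp2s1 lies at -2.72 in differentiated cells, and Lpar6 at 3.20 in ES cells and -0.80 in differentiated cells.

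The genes whose pattern was most like that of a member were found by Pearson correlation of each gene's deviations from its stage mean over the 10 arrays, among 13711 genes. For Cyp1a1 they were Nppa (r = 0.998), Lpar3 (0.997) and Kcng2 (0.997), with rises of 7.06, 3.05 and 2.75 in differentiated cells. For Cyp1b1 they were Txndc16 (0.991), Tspan12 (0.987) and 1300002E11Rik (0.987), and for Tiparp Gm12338 (0.993), Uqcr10 (0.983) and Acacb (0.981). For Ahr they were Cnksr3 (0.989), Moxd1 (0.977) and Ehd2 (0.967), each higher with EBIO in ES cells and lower in differentiated cells. These correlations describe 10 arrays in 4 groups that share their treatment, and the group differences set most of them.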

How the data were processed

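RNA of 10 samples was hybridised to Affymetrix arrays after one-cycle labelling, per the labels' protocols. The deposited values are log2 values. RMA is named in the submitters' processing notes as the authors' method, with versions not given in the sources used here. From the values, the 6 ES and the 4 differentiated arrays were normalized apart: quantiles differed by at most 0.0936 and 0.0499 on average within the sets and by at least 0.911 between them. The number of arrays limits the precision.

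Probe sets were named from the platform annotation, with symbols of 34741 brought up to date through RefSeq (GRCm38.p6). Of 45101 probe sets 64 were controls and left out. The probe set with the highest mean stood for each of 18193 genes. Tests covered genes above the median of the array on a minimum number of arrays, the size of the smallest group in the fit. They were run with limma 3.58.1 (R 4.3.3), with Benjamini-Hochberg adjustment over all genes tested and a threshold of 0.05; the script was tested on simulated data. The fit of a stage used the arrays of that stage, and the interaction used all 4 groups. The design text calls the samples of a group independent experiments.

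The members and lists were chosen with earlier results of these data known. All members were named, with up to 3 called genes per direction, list and comparison, and the 3 genes most like Ahr, Cyp1a1, Cyp1b1 and Tiparp. Promoter windows and the motif search used the RefSeq promoter table. ES replicate numbers pair by passage: same-numbered arrays came from 1 passage, and after group means were removed they correlated at 0.33, 0.23 and 0.62. Alternatives were other filters, probe set rules, scalings, priors, the replicate block and leaving out each array.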

Additional observations from a re-analysis of the deposited data

Results flagged for a closer look

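The effect of EBIO differed between the stages, by the interaction test, for 5 members: Cyp1a1 (4.68, differentiated minus ES), Nqo1 (2.44), Tiparp (1.82), Cyp1b1 (1.22) and Ahr (-1.69). Of all 13712 genes tested 45.5% were called, and nothing is read from the members' count. Cyp1a1 entered that test only through the EBIO-treated differentiated arrays and Cyp1b1 only through the differentiated arrays, where they are high. Tiparp and Nqo1 were called lower in ES cells and higher in differentiated cells, while Cyp1a1 and Cyp1b1 were too dim in ES cells to be tested there. The ES arrays had 1 mM EBIO for 3 days and the differentiated ones an unstated dose for 10 days.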

How the results depend on the processing

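The calls of Cyp1a1, Cyp1b1, Tiparp and Ahr in differentiated cells, of Nqo1 and Tiparp in ES cells, and of all 5 interactions kept direction and call in every alternative that could test them. Over these, Cyp1a1 ranged from 4.04 to 4.90, Cyp1b1 from 0.95 to 1.58, Tiparp from 0.90 to 1.11 and Ahr from -1.11 to -0.65 in differentiated cells. In ES cells Nqo1 ranged from -1.91 to -1.41 and Tiparp from -0.84 to -0.68. Nqo1 in differentiated cells lost its call in the fit on all 4 groups (0.76, adjusted p = 0.057, limma) and kept it in the other alternatives that tested it. That fit shares 1 spread over all groups. The SD of Nqo1 was 0.47 in untreated and 0.43 in EBIO-treated ES cells, and 0.03 and 0.11 in differentiated cells. The cause was not tested. In ES cells the number of members called higher, which was 1 (Ahr), became 0 with no filter, 0 with the filter at the 75th percentile, where Ahr was not tested, and 0 when probe sets were averaged per gene. Leaving out single arrays it ranged from 0 to 1. The number called lower there was 2, and 3 with no filter, where Aldh3a1 was added. The cause was not tested. For untreated differentiated minus untreated ES cells, the level relative to the array median reversed after quantile normalization of all 10 arrays for Arnt (0.26 to -0.20), Ahrr (-0.89 to 0.064), Cyp1a1 (-0.44 to 0.40) and Tiparp (0.15 to -0.023). With the replicate block 53.5% of genes were called in ES cells, 60.7% in differentiated cells and 52.2% in the interaction, and no member's call changed. In differentiated cells same-numbered arrays correlated at -0.13 after group means were removed. Arrays of unlike number correlated at 0.13, which 2 arrays per group fix as the mirror value. With the numbers crossed in the block 65.8% of genes, 4 members higher and 1 lower were called, a setting chosen after seeing the data. Leaving out 1 differentiated array assumes that the lone array of its group varies like the other group. Dim genes limit what can be said of Ahrr, Cyp1a2 and Aldh3a1.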
